A study of Mus musculus with 4 samples.

Results

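The segments that encode the alpha and delta chains of the T cell receptor lie on mouse chromosome 14, from 52427967 to 54224198 in build mm10. They were examined together with the sequence on both sides, from 51200000 to 54600000. Overlapping peaks (at least 1 bp) of 4 ATAC-Seq libraries were merged into 337776 union regions on the autosomes and X, and 604 of them lay in this window. Of these, 205 lay before the receptor segments, 291 within them and 108 after them. In ATAC-Seq a transposase inserts into open chromatin, and a peak marks a stretch where many fragments begin. The cells were sorted bone marrow HSCs, which the labels call ltHSC and the study also describes as HSPCs, from 2 control and 2 Cpt1a-KO libraries. Control mice carried floxed Cpt1a (Cpt1a fl/fl, labelled WT). KO mice (Cpt1a Δ/Δ) came from crossing floxed animals with Vav1-Cre mice, in which the recombinase is made throughout the blood system, and both genotypes shared a C57BL/6 background. Cpt1a encodes the mitochondrial enzyme that commits long-chain fatty acids to oxidation. No source used here says whether the 2 libraries of a genotype came from separate mice, and the study's methods give adult mice of both sexes in general, with no age or sex tied to a library.

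The window was chosen by the presence and strength of peaks in these same libraries, which had been seen to differ there. Counts by genotype, fold, rank and width are therefore given as descriptions, with no test. With 2 libraries against 2, an exact two-sided permutation test could not go below p = 0.333. In the library-wide lists, 240881 to 277531 summits covered 42.6 to 52.9 Mb, and the share of summits that reached 5 in −log10 q was 42.5% and 46.8% in the controls, 40.5% in KO 1 and 35.1% in KO 2. The targeted gene, Cpt1a, held 20 and 19 peak regions in the controls and 17 and 15 in KO within 5000 bp, so peaks alone do not check the deletion. All 9 stem cell marker genes with a listed promoter had a promoter peak in every library. So did 3 of 4 myeloid, 2 of 3 B cell, 4 of 13 T cell and 0 of 3 erythroid marker genes. Promoter peaks were thus not confined to stem cell markers.

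The alpha and delta receptor chains are assembled in developing T cells by cutting and joining V, D and J gene segments, after which a constant segment completes the chain. The delta D, J and C segments lie between the V segments and the alpha J segments, so that joining a V to an alpha J segment removes the delta part. Each V segment has its own promoter directly upstream, and an enhancer beyond the alpha constant segment Trac, before the widely used gene Dad1, is needed for alpha transcription in T cells. In the mouse strain of the reference genome, a central block of V segments is present in near-identical copies, named with the letters d and n and, for the third copy, with no letter. Stem cells do not rearrange these segments.

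The promoters of 5 neighbouring genes are printed below because they frame the receptor segments and their peaks are described with the results. They are from RefSeq (GRCm38.p6), 300 bases each, 5′ to 3′ on the strand of the gene. Capitals mark matches to 3 strings of letters searched on both strands, which were GAGGAAGT for PU.1, TGTGGTT for RUNX and TGACGTCA for a cyclic AMP response element (CRE). None of the printed promoters held more than 1 match, so no matches overlapped.
Olfr1511, chr14:52390722-52391021, minus strand: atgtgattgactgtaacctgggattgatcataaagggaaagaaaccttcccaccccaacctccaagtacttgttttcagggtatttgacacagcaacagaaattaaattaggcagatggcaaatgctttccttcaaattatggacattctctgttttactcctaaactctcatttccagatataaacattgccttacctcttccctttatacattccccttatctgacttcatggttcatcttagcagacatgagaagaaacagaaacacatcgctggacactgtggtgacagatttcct
Rab2b, chr14:52279346-52279645, minus strand: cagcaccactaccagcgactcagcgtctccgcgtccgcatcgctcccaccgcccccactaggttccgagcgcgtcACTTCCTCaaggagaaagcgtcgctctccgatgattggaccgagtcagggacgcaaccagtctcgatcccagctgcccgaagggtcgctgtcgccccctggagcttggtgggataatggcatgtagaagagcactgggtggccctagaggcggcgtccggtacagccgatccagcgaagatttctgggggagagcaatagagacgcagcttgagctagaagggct
Dad1, chr14:54253880-54254179, minus strand: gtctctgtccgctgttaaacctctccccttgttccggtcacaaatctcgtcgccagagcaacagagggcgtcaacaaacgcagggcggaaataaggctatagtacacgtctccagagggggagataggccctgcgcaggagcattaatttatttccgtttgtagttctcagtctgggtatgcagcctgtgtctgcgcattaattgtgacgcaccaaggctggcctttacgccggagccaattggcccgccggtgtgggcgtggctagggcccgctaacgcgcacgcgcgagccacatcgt
Oxa1l, chr14:54360591-54360890, plus strand: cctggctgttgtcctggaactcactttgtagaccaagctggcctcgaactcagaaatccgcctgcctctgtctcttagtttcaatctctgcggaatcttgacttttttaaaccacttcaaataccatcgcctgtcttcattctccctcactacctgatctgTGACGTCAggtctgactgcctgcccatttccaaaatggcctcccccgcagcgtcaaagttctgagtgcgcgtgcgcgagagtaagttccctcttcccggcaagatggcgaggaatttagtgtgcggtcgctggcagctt
Mrpl52, chr14:54426659-54426958, plus strand: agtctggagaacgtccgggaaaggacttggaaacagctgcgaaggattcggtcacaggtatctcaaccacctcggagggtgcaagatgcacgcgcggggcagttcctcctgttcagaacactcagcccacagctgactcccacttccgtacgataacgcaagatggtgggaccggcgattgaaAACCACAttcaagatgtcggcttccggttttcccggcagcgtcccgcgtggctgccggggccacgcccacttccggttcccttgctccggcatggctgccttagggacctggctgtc
Over 32851 promoters of the same length, the PU.1 letters occurred in 3.20%, the RUNX letters in 5.27% and the CRE letters in 1.79%. Rab2b held the PU.1 letters on the opposite strand, Oxa1l the CRE letters and Mrpl52 the RUNX letters on the opposite strand, and no other listed promoter of the window held a match. A core motif of CTCF, searched in the same way, occurred in 0.371% of all promoters and in none of those listed. The promoter of Dad1 overlaps that of Abhd4, which is read in the other direction. Sequences of the V, D, J and C segments themselves are not printed here.

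Before any genotype is considered, the receptor segments were open at many places in these stem cells. Control 1 had a peak in 177 of the 291 receptor regions, control 2 in 169, KO 1 in 171 and KO 2 in 152. All 4 libraries shared 93 regions (32.0%), against 23.8% of all union regions. The fold given here is the authors' ratio of the highest summit's signal to that library's own background. Its percentile is the rank of that fold among all summits of that library on the autosomes and X. The shared receptor regions had a median fold of 6.50 and 6.68 in the controls, 6.10 in KO 1 and 5.29 in KO 2. The corresponding medians in the rest of the genome were 6.10, 6.17, 5.86 and 5.41. Shared receptor peaks were thus close in fold to other shared peaks, but they were narrower. Their median width was 244 and 243 bp in the controls and 191 and 184 bp in KO, against 396, 382, 301 and 326 bp elsewhere.

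**Figure D1:**
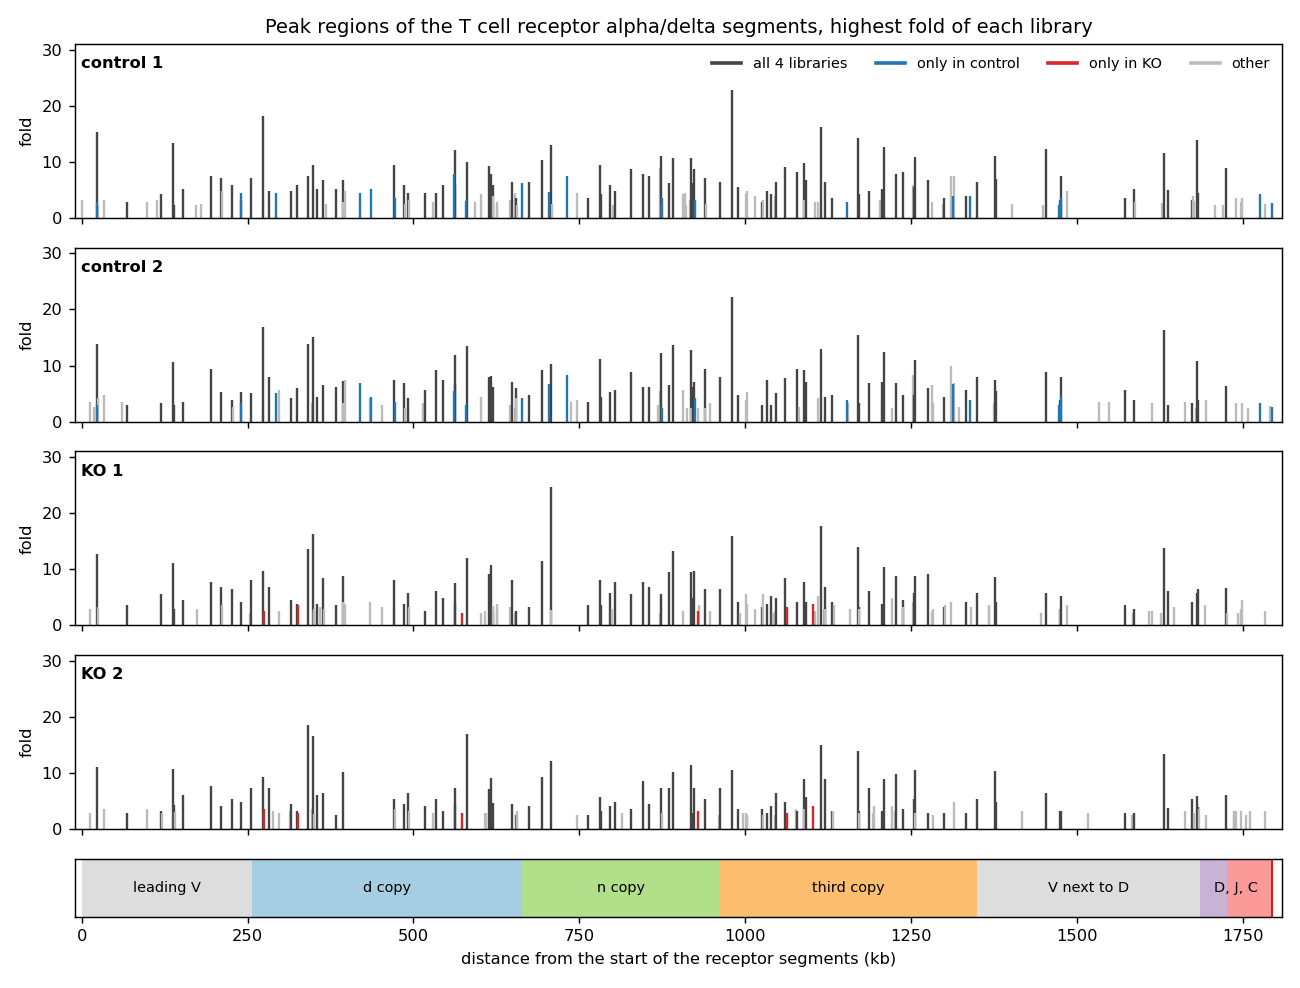
Highest fold of each receptor region (vertical lines) in the 4 libraries, against distance from the start of the receptor segments in kb; color marks regions in all 4 libraries, only in control, only in KO, or in another combination, and the strip at the bottom shows the stretches of segments. Peaks fill the V segments up to about the D segments in every library, and few and mostly low peaks lie over the D, J and C segments at the right.

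The V segments carried nearly all of this. The 5 stretches of V segments (271 regions) held 92 of the 93 shared regions, and the delta D, J and C, alpha J and Trac stretches (20 regions) held 1. That region lay from 54152518 to 54153253, between the delta constant segment and the first alpha J segment, Traj61. Its fold was 8.90 and 6.33 in the controls and 6.69 and 6.11 in KO, so the genotypes overlapped. Among the 60 alpha J segments, a peak lay in the segment or the 500 bp before it for 4 and 3 in the controls and 2 and 4 in KO, and none had one in all 4 libraries. Of 136 V segments, 73 and 68 had such a peak in the controls and 71 and 64 in KO. In all, 51 V segments had one in every library and 44 in none.

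About as many shared V peaks lay just before a V start, where V promoters lie, as elsewhere. The gene table gives no strand, so "before" means toward lower coordinates, which is upstream for these V segments. Of the 92 shared V regions, 45 (48.9%) had their midpoint in the 500 bp before the start of a V segment, a space that makes up 3.98% of the bases of these stretches. Only 4 (4.35%) had it inside a segment (4.19% of the bases), and none had it in the 500 bp after a segment's end (4.00%). Counting a segment with its 500 bp before, 49 of 92 shared regions (53.3%) lay there, 31 of 116 regions (26.7%) found in a single library, 6 of 18 only in control and 3 of 6 only in KO, against 8.16% of the bases. The position was not part of how regions were chosen. Neighbouring regions and near-identical segments are not independent, and no test was run on these shares.

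**Figure D2:**
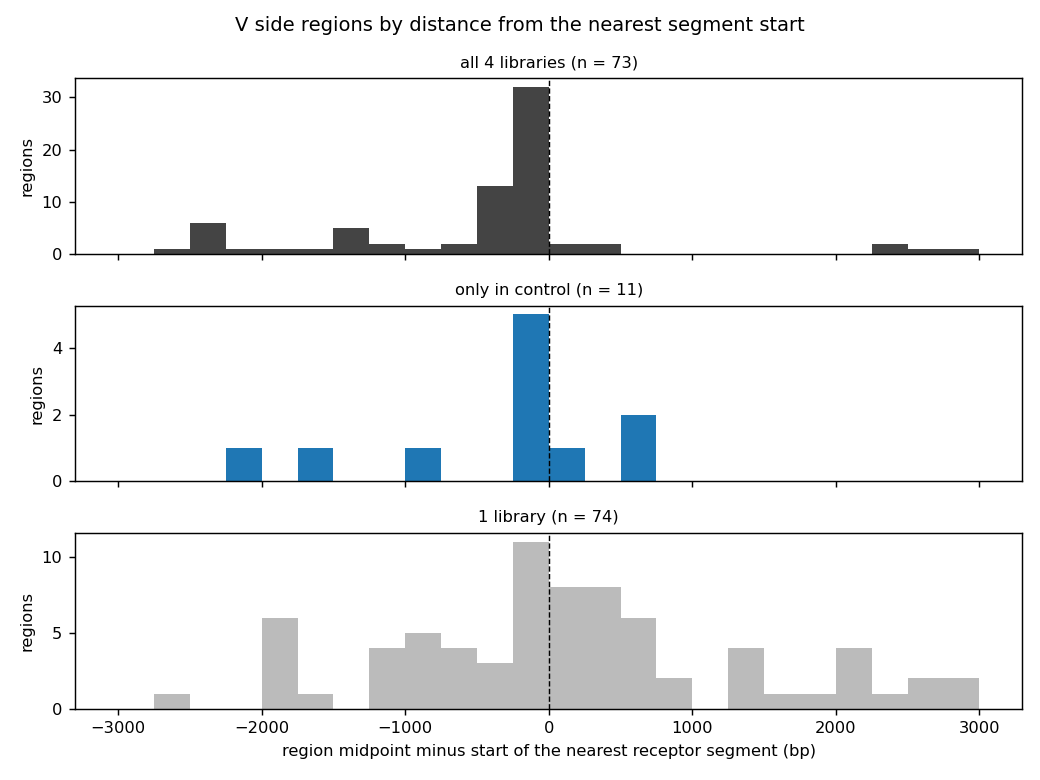
Number of V side regions by the distance of their midpoint from the start of the nearest receptor segment, in bins of 250 bp, for regions in all 4 libraries, only in control and in 1 library, limited to 3000 bp on each side. The shared regions pile up just before the start, with the highest bin in the 250 bp before it.

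The 3 shared V regions whose lowest percentile over the 4 libraries was highest, a choice that favors regions alike in all libraries, are given next. The region from 53597154 to 53597706, before Trav4-3, had a fold of 14.3 and 15.4 in the controls and 13.97 and 13.8 in KO. The region from 53541740 to 53542069, before Trav13-1, reached 16.2 and 13.0 in the controls and 17.8 and 15.0 in KO. The region from 54059855 to 54060259, in the stretch that ends at the D segments, reached 11.6 and 16.4 in the controls and 13.8 and 13.4 in KO. In all 3, the spread between the controls was wider than the difference between the genotype means. At the first, both controls were still above both KO libraries in fold.

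Some regions were held by a single genotype. Within the receptor segments, 20 of 291 regions (6.87%) were held by both controls and neither KO library, against 2.46% of all union regions. The reverse held for 6 (2.06%), against 1.41%. Before the receptor segments, 6 of 205 regions were restricted to control and 4 to KO, and after them 3 of 108 and 1. These counts belong to the contrast that chose the window, and nothing is read from them. The 20 regions were weaker than shared ones, with a median fold of 3.90 in control 1 and 4.00 in control 2. The 6 regions only in KO were weaker still, with medians of 2.93 and 3.05.

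The libraries differed in the size of the steps between their fold values. Most fold values of the receptor segments fall on a ladder of equal steps, 0.325 and 0.297 per step in the controls, 0.326 in KO 1 and 0.407 in KO 2. If a step stands for 1 overlapping fragment and the caller used its usual ratio (count plus 1 over background plus 1), the background was 2.08, 2.37, 2.07 and 1.46 fragments per base position. Relative to control 1, that is 1.14 for control 2, 0.996 for KO 1 and 0.701 for KO 2. Within the receptor segments, 74.2%, 64.2%, 82.4% and 78.6% of summits lay on the ladder (to within 0.001). Over all summits of a library, 31.1%, 25.3%, 32.7% and 32.1% lay on it. Under these assumptions, KO 1 was about as deep as control 1 on this scale and KO 2 was shallower. Regions missing in KO 2 alone numbered 16 of the 291 (5.50%, against 2.67% of all regions), and 4 were missing in KO 1 alone, against 1.64% of all regions. How far depth contributes to the regions only in control was not tested. Without KO 2 their number was 24 of 262 (9.16%), against 4.93% of all regions under that setting. Fewer libraries then had to lack a peak, so the number rises by construction and cannot show how far depth contributes.

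In 89 regions of the genome (0.0263%), both controls reached 5 in −log10 q while neither KO library had any peak. Of these, 8 lay in the window and 6 in the receptor segments. No region of the reverse kind lay in the window, against 9 (0.00266%) in the genome. All 6 receptor regions lay in the d and n copies of the V block, 4 in d and 2 in n. The third copy, which held 75 regions, had none of them, and 3 of the weaker regions only in control.

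The strongest pair of these regions occupied the same place in both copies. In the n copy, the region from 53159115 to 53159288, 3198 bp before Trav13n-1, had a fold of 7.47 in control 1 and 8.30 in control 2 and no peak in KO. In the d copy, the region from 52848086 to 52848249, 3188 bp before Trav13d-1, had 4.55 and 6.82 and no peak in KO. If a step of the ladder is 1 fragment, these would be 22 and 27 fragments for the n copy and 13 and 22 for the d copy. Why KO had no peak there was not tested. The matching place in the third copy, 3110 bp before Trav13-1, is the strong region given above, at 16.2, 13.0, 17.8 and 15.0. So 1 site was present in every library in the third copy and only in the controls in the others.

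At each of the other strong regions, 1 copy alone was only in control. In the d copy, the region from 52988660 to 52988884, 2117 bp before Trav4d-4, had a fold of 7.85 and 5.51 in the controls. Its counterpart in the n copy had 9.01 and 5.51 in the controls, 2.28 in KO 1 and no peak in KO 2, and that in the third copy had 5.86, 8.29, 4.24 and no peak. At this site both KO libraries were below both controls in every copy. In the n copy, the region from 53132490 to 53132701 over the start of Trav6n-6 had 4.72 and 6.81 in the controls. Its d counterpart, over Trav6d-6, had 6.82 and 7.18 in the controls and 8.80 and 10.2 in KO, higher in KO. In the third copy it had 9.75 and 9.19 in the controls and 7.82 and 8.96 in KO, lower in KO.

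The region from 52863141 to 52863469 covers the start of Trav15d-1-dv6d-1, a segment that can be joined as alpha or as delta. It had a fold of 5.20 and 4.45 in the controls and none in KO. Its n counterpart had 4.55 and 3.85 in the controls, none in KO 1 and 2.44 in KO 2. The counterpart in the third copy had 3.57 and 4.74 in the controls and 4.24 and 3.26 in KO, where the genotypes overlapped. The region from 52720650 to 52720935, 4516 bp before Trav6d-3, had 4.55 and 5.04 in the controls and has no counterpart among the sites compared.

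To compare copies in full, 32 V members present in all 3 copies were used as anchors, and regions of at least 2 libraries within 6000 bp of a member were matched by their distance from its start. The copies are spaced by a median of 310965 bp from d to n and 386293 bp from n to the third. The 96 regions formed 44 sites, of which 22 were found in all 3 copies, 6 in 2 and 16 in 1. Reads from near-identical copies may be placed in any of them, and how the authors treated such reads is not given in the sources used here, so the values of single copies are uncertain.

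Of the 22 sites in all 3 copies, 7 were held by all 4 libraries in each copy. A copy only in control occurred at 8 of them, and a copy only in KO at 1. Of the 68 regions at these sites, 9 were restricted to control and 1 to KO, where 6.05% and 3.47% of all regions of at least 2 libraries were in these classes. In the d copy, 21 and 21 of the 22 sites had a peak in the controls, 18 in KO 1 and 16 in KO 2. In the n copy these counts were 22, 22, 18 and 16, and in the third copy 21, 22, 20 and 19.

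The site in KO alone was before Trav5-4. In the d copy, 150 bp before Trav5d-4, the fold was 2.28 in KO 1 and 2.85 in KO 2, with no peak in the controls. In the n copy it was 6.17 and 6.52 in the controls and 9.45 and 7.33 in KO, and in the third copy 6.82, 5.93, 9.12 and 2.85. KO was higher in the n copy and the genotypes overlapped in the third.

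Sites also differed in strength between copies. Before Trav11n, the n copy had 13.1 and 10.2 in the controls, 24.7 in KO 1 and 12.2 in KO 2, the highest fold of KO 1 in the receptor segments. The d copy, before Trav11d, had 4.87, 7.43, 3.91 and no peak in KO 2, and the third copy had 6.72, 7.12, 4.24 and 5.70. KO 1 was thus the highest library in the n copy and lower than both controls in the others. At Trav10, the third copy had 8.12 and 9.49 in the controls and 4.24 and 3.26 in KO, and the d copy 5.20, 6.23, 3.58 and 2.44. The n copy had 10.4, 9.19, 11.4 and 9.37, where the genotypes overlapped. Before Trav7-4, the n copy was only in control at 6.17 and 4.15, the third copy had 4.87, 7.41, 3.91 and 2.85, and the d copy had 7.47, 13.9, 13.7 and 18.5. In the d copy the genotypes overlapped.

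**Figure D3:**
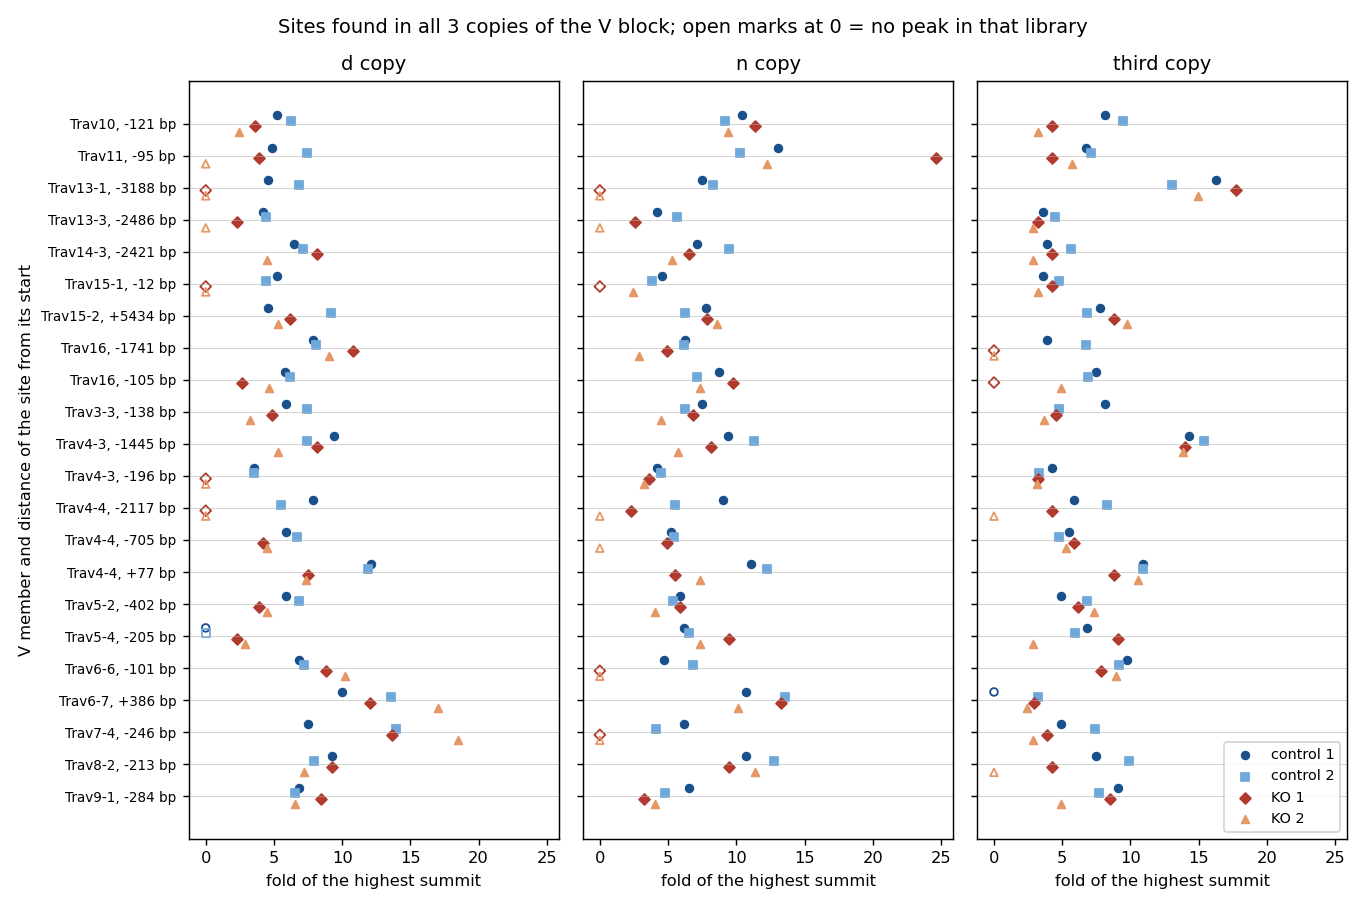
Fold of the highest summit (horizontal axis) for the 22 sites found in all 3 copies of the V block, with a panel for each copy and a mark for each library; an open mark at 0 means no peak. Open KO marks are more frequent in the d and n copies than in the third copy, and the Trav13-1 site has control marks alone in d and n and all 4 libraries at high fold in the third.

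The weaker regions only in control included sites of the J and C side. A region within Trac, from 54222412 to 54222729, had a fold of 2.61 and 2.66 in the controls, and one over Traj15, from 54204434 to 54204798, had 4.22 and 3.26. Neither reached a −log10 q of 5 in both controls. Among regions only in KO, the strongest lay 126 bp before Trav7-5, from 53530552 to 53530769, with 3.91 in KO 1 and 4.07 in KO 2. The next was over Trav6d-4, from 52753203 to 52753405, with 3.58 and 2.85. The other four were over Trav6-5 (3.26 and 2.85), before Trav4d-2 (2.61 and 3.67), after Trav16n (2.61 and 3.26) and the one before Trav5d-4 given above.

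Among the 93 shared receptor regions, the percentile of both controls was above that of both KO libraries in 34 (36.6%), against 22.9% of all shared regions, and the reverse held in 12 (12.9%), against 14.8%. Before the receptor segments these counts were 8 and 10 of 51, and after them 8 and 10 of 42. The median percentile of the shared receptor regions was 79.9 and 79.6 in the controls, 78.4 in KO 1 and 73.8 in KO 2. KO 1 was thus nearer to the controls than to KO 2.

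Several of the higher folds in control were far from a V start. The highest region of the controls, from 53407400 to 53408281 and 10548 bp before Trav4-2, had 22.7 and 22.2 in the controls, 16.0 in KO 1 and 10.6 in KO 2. The region from 52700942 to 52701714, before Trav4d-2, had 18.2 and 16.9 against 9.77 and 9.37. Its width was 766 and 402 bp in the controls and 302 and 399 bp in KO. Just before the first D segment, Trdd1, a region from 54108722 to 54109152 had 13.8 and 10.9 against 5.86 and 5.86. These regions were chosen because both controls ranked above both KO libraries, so the lack of overlap between genotypes is not a result.

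V promoters with the same order included Trdv1, a delta V segment, where the region from 53881179 to 53881763 had a fold of 12.3 and 8.90 in the controls and 5.86 and 6.52 in KO. At Trav4d-4 the region over the start had 12.1 and 11.9 against 7.49 and 7.33, and its n counterpart 11.05 and 12.2 against 5.54 and 7.33. The counterpart in the third copy had 10.9 in each control, 8.80 in KO 1 and 10.6 in KO 2, a smaller gap. Of the regions with KO higher, one from 54101751 to 54102398, before Trdd1, had 3.25 and 3.26 in the controls and 4.24 and 5.29 in KO. The region from 52775911 to 52776144, before Trav8d-1, had 9.42, 15.1, 16.3 and 16.7, where control 1 was the low library and control 2 was close to KO.

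As a share of all peak bases of a library, the receptor segments took 0.805 and 0.780 per 1000 in the controls, 0.756 in KO 1 and 0.672 in KO 2. The peaks there covered 42.6, 38.2, 32.2 and 29.8 kb. Both KO libraries were below both controls, and the gap between the KO libraries was larger than that between KO 1 and control 2. Before the receptor segments the shares were 0.692, 0.776, 0.739 and 0.719, and after them 0.473, 0.535, 0.477 and 0.508, where the genotypes overlapped. In the third copy of the V block, KO 1 had the highest share of the 4 libraries (0.215 against 0.202, 0.198 and 0.189), while in the d and n copies and the other V stretches both KO libraries were below both controls.

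**Figure D4:**
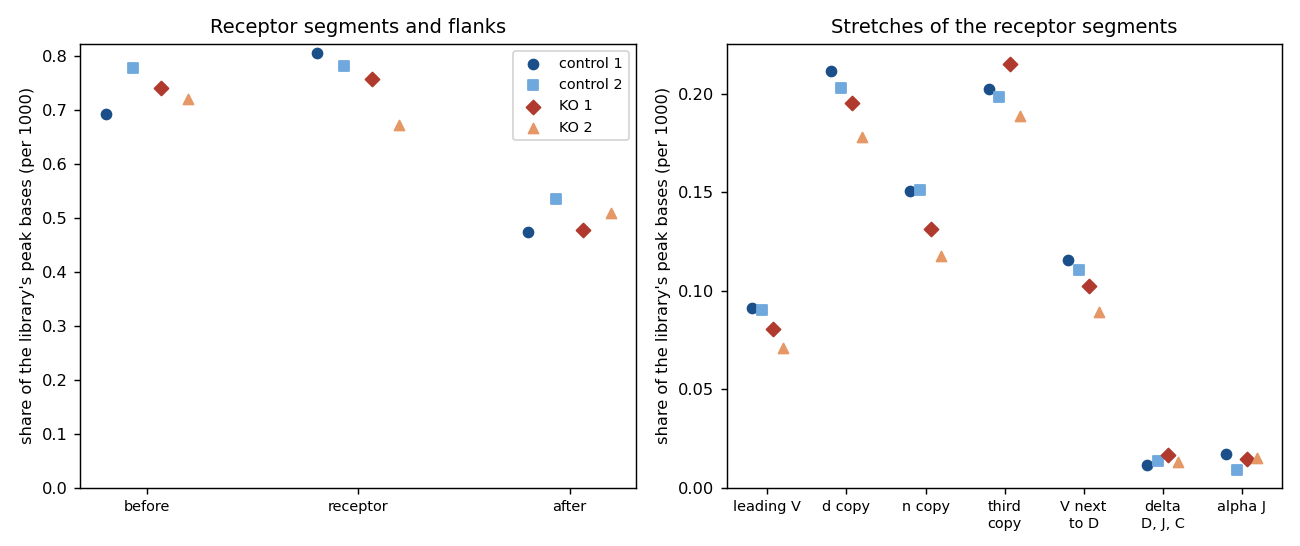
Share of each library's peak bases (per 1000) that lies before, in and after the receptor segments (left) and in the stretches of receptor segments (right), with 1 mark for each library. The controls lie above KO in the receptor segments as a whole, and in the d and n copies, but not in the third copy or the flanks.

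Genes of T cells were read in the same way. Of 13 T cell marker genes with a listed promoter, 6 and 6 had a promoter peak in the controls and 5 and 6 in KO, and the folds summed over the list were 27.1 and 26.3 in the controls and 23.0 and 24.9 in KO. Cd3e, Cd3d and Cd8a (surface proteins of T cells), Ptcra (the partner of the early beta chain), Bcl11b (a T cell fate regulator) and Rag2 (part of the enzyme that cuts the segments) had no promoter peak in any library. A promoter peak in every library was found at Tcf7, a T cell transcription factor (7.79 and 6.78 in the controls, 6.66 and 5.01 in KO), Cd5, a surface protein (6.32, 6.78, 5.51 and 4.72), Gata3, a transcription factor also used in other cells (4.32, 3.22, 4.72 and 4.08), and Rag1, the partner of Rag2 (2.60, 3.13, 2.88 and 3.67). Both controls were above both KO libraries at Tcf7 and Cd5, and the genotypes overlapped at the other two. Cd3g, Lck and Zap70 had a promoter peak in some libraries. Of 236 regions near the 18 T cell genes, 8 (3.39%) were found in both controls alone and 2 (0.847%) in both KO libraries alone, against 2.46% and 1.41% of all union regions. The part of T cells in the receptor regions was not tested.

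The edges of the receptor segments were sharp in strength on one side. The last region within them was the weak one in Trac given above, and the next, from 54227068 to 54228398, lies between Trac and Dad1, the interval that holds the alpha enhancer. It had a fold of 11.6 and 11.9 in the controls and 11.4 and 11.3 in KO, and it spanned 1331 bp. Its values were close in all libraries, and the region was not matched to the enhancer's own sequence. At the other edge, the last region before the receptor segments (2.44, in KO 2 alone) and the first within them (3.25, in control 1 alone) were both weak. The first receptor stretch also holds the olfactory receptor gene Olfr1509, which has a strong region from 52450685 to 52451676 at 15.3, 13.9, 12.7 and 10.995. That region lies over the gene, from 52450393 to 52451402, and runs past its end. The listed promoter of Olfr1509 had no peak in any library. Directly before the strong region lay a small, weak region only in control (2.92 and 3.06), where the lower −log10 q of the controls was 1.47.

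The genes on both sides gave promoters of known use as a standard. All 7 genes of RNA and chromatin (Mettl17, Hnrnpc, Supt16, Chd8, Tox4, Mettl3 and Prmt5) and all 11 other widely used genes had a promoter peak in every library. Of 7 genes used in few tissues 2 had one in every library, of 7 olfactory receptors 2, and of 5 genes of the RNase A family none. Among the printed promoters, that shared by Dad1, a subunit of the enzyme that adds sugar chains to proteins, and Abhd4 had a fold of 21.2 and 21.3 in the controls and 24.5 and 22.4 in KO. The promoter of Rab2b, a small GTPase of membrane traffic, shares a region with Tox4 and had 20.1, 19.5, 20.01 and 18.9. The promoter of Oxa1l, a factor that inserts proteins into the mitochondrial inner membrane, had 19.8, 16.5, 15.8 and 18.4. For these strong promoters the genotypes overlapped, or, at Dad1, KO was higher.

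Some promoters of middle strength, picked after their values were seen, had both controls above both KO libraries. By percentile, that order held in 15.7% of shared regions before the receptor segments and 19.0% after them, against 22.9% of all shared regions. The reverse held in 19.6% and 23.8%, against 14.8%. The promoter of Mrpl52, a protein of the mitochondrial ribosome, had a fold of 12.1 and 12.4 in the controls and 9.22 and 9.32 in KO. Ndrg2, a stress-responsive gene, had 11.6, 11.5, 9.70 and 7.30. At the olfactory receptor gene Olfr1511, whose known use is in the nose, the region had 10.6 and 11.1 against 8.78 and 8.45. That region, from 52389835 to 52390838, lay mostly over the gene itself, from 52389815 to 52390771. It overlapped only part of the printed promoter. Ajuba, a scaffold protein of cell contacts, had the reverse order at 8.76 and 8.99 against 12.4 and 10.6.

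**Figure D5:**
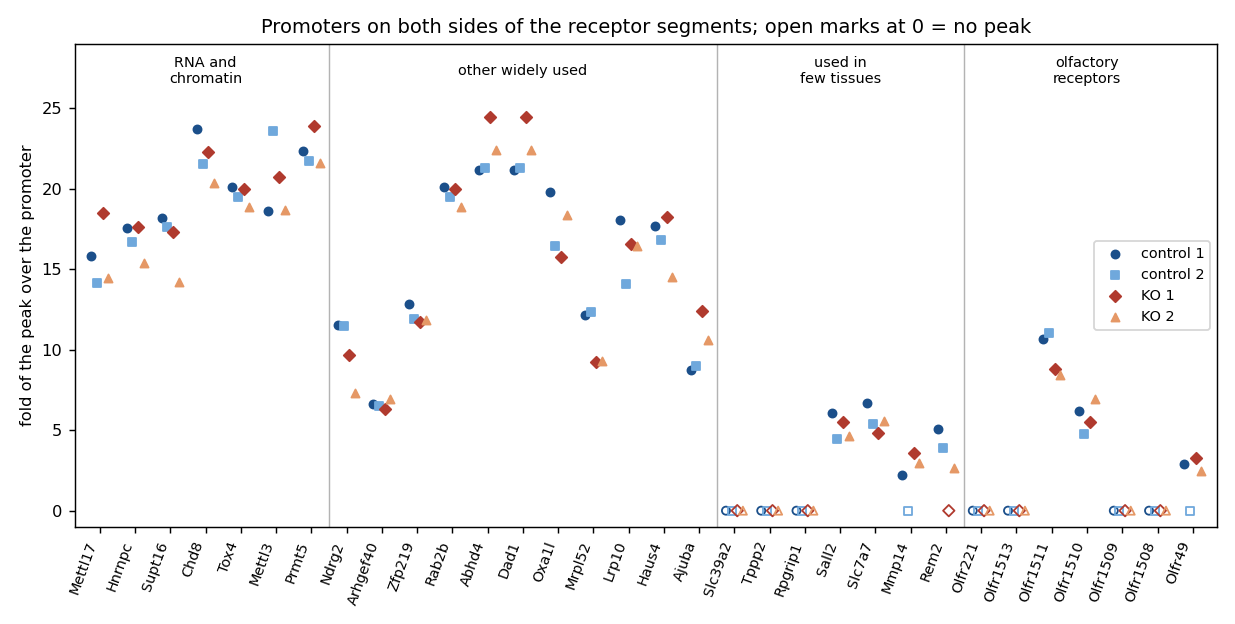
Fold of the peak over the promoter of genes on both sides of the receptor segments, by role, with 1 mark for each library and an open mark at 0 where a library has no peak. For a gene with several promoters, only the one with the highest fold is shown. Widely used genes then lie between 6.34 and 24.5 in all libraries, and most tissue-restricted genes and olfactory receptors have no peak or a low one. A second promoter of Zfp219, not shown, had 3.24 and 4.13 in the controls and 3.81 and 3.18 in KO.

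In the flanks, the 3 shared regions on each side whose lowest percentile over the 4 libraries was highest were chosen in the same way, so their likeness between libraries is not a result. Before the receptor segments these were the region from 52244029 to 52245055 (26.5, 25.5, 26.0 and 23.0), the promoter of Chd8, a chromatin remodeler (23.7, 21.5, 22.3 and 20.4), and the promoter of Tox4 and Rab2b. After them they were the promoters of Prmt5, a protein arginine methyltransferase (22.3, 21.7, 23.9 and 21.6), Dad1 and Oxa1l. Each flank also held 1 strong region only in control. The one before, from 52198224 to 52198415 in Chd8, had a fold of 5.47 and 5.04, and the one after, from 54579753 to 54579891 beyond Ajuba, had 3.44 and 3.69. Both had no peak in either KO library.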

How the data were processed

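Sorted cells were profiled by ATAC-Seq, with 2 libraries per genotype. The submitters' processing notes name Bowtie2, MACS2 and mm10, with no versions. The authors called peaks per library and deposited a ratio (the fold of a summit over background), a −log10 p and a −log10 q. The authors' score column, a capped form of the −log10 p, was not used. Reads were not used here, so the study's differential test could not be run.

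Peaks on the autosomes and X that overlapped by at least 1 bp were merged (pandas 2.3.3 and numpy 2.4.6 under Python 3.11.15). All summits of a library were ranked by fold and by −log10 q, and a region took the highest value and rank of its summits in each library. The merging and classes were tested on simulated data. Segments and genes came from a RefSeq table (GRCm38.p6) and promoters from its promoter table. Depth per library is unknown. The fold ladder gives relative values only, under the assumptions stated with it, so no interval or floor was computed.

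The members and lists were chosen with earlier results of these data known. Regions named were all that reached 5 in −log10 q in both libraries of 1 genotype without a peak in the other, the 5 highest of each direction in the receptor segments, and the 3 shared regions of each zone whose lowest percentile over the libraries was highest. Those given for copies, edges or rank order were chosen after their values were seen.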

Additional observations from a re-analysis of the deposited data

How the results depend on the processing

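The main counts in the receptor segments were 20 (control) and 6 (KO) regions held by a single genotype, and in the whole window 29 and 11. When summits under 5 in −log10 q were dropped they were 22 (18.3%) and 0 of 120 receptor regions, and 28 and 1 of 222 in the window. Of all regions, 5.58% and 0.642% were then in these classes. With the 100000 strongest summits of each library they were 9 (8.57%) and 1 (0.952%) of 105, and 11 and 3 of 192. The shares of all regions were then 2.21% and 2.49%. With 5 in −log10 q required of the holding genotype and no threshold for the other, they were 6 and 0, and 8 and 0. Lists of equal length (240881 summits) and a covered share of at least 0.5 moved no count by more than 1.5 times. Leaving out 1 library gave 24 to 50 control regions and 10 to 47 KO regions in the receptor segments, and 40 to 104 and 22 to 94 in the window, where 4.93% to 20.6% and 2.80% to 21.5% of all regions were in these classes. By construction, fewer libraries then had to hold or lack a peak. Without KO 1, 41 receptor regions (16.0%) were restricted to KO and 35 (13.6%) to control, against 21.5% and 6.11% of all regions. Without KO 2 they numbered 47 (17.9%) and 24 (9.16%), against 21.2% and 4.93%. The control minus KO difference in median fold percentile of shared receptor regions was 3.645, it was 2.653 when −log10 q ranked the peaks, and 2.441 to 5.637 on leaving out 1 library. The difference in the share of peak bases was 0.0786 per 1000, rising to 0.1928 without summits under 5 in −log10 q and 0.1445 with the strongest summits, and it was 0.03666 to 0.1205 on leaving out 1 library. The cause of these moves was not tested. The omissions of 1 library for the last 2 values were added after seeing the data. No paired analysis was possible because the result of each comparison is a count or value that comes from no test, and nothing says that libraries of the same number share a mouse or day. Single copies of V segments, peaks near the threshold and libraries of possibly unequal depth limit what absence of a peak shows.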

Other observations

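Outside the receptor segments, the shared region with the widest rank gap in favor of control, chosen after its values were seen, lay in Slc7a7, a transporter of basic amino acids, from 54397788 to 54398386. Its fold was 9.17 and 6.28 in the controls and 3.91 and 3.67 in KO. The region with the widest gap in favor of KO lay from 51777752 to 51778245, with a fold of 3.90 and 3.56 in the controls and 6.19 and 7.74 in KO, and it overlapped no listed gene.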
